A study of Rattus norvegicus with 15 samples.

Results

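Of the genes that skeletal muscle is known to change when it loses its nerve, 7 were followed here across the multifidus of operated and unoperated rats: *Ncam1*, *Scn4a*, *Runx1*, *Hdac4*, *Hdac9*, *Dach2* and *Gdf5*. They were the rows of the deposited table that carry these symbols, 7 of 37991 genes, and 6 of them had enough counts to be tested. The acetylcholine receptor genes and myogenin, the best known denervation genes, are not among them and appear below as related genes.

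Total RNA of multifidus, the deep muscle along the spine, was sequenced from wild-type male Sprague Dawley rats of 12 weeks in 15 libraries of 5 groups. Control rats were uninjured (2 libraries). All other rats had a hemilaminectomy with ligation and cutting of the L5 spinal nerve. Of these, the surgery group received nothing further (2 libraries), the pMT group received mitochondria isolated from human plasma, 25 µg per site and 50 µg per rat (4 libraries), the VitD group received cholecalciferol, 150 µg per site and 300 µg per rat (3 libraries), and the pMT/VitD group received both (4 libraries). Injections went to the left paraspinal muscle at L4–L5 and L5–L6, pMT in 100 µL of buffer 2 weeks after surgery, and tissue was taken 2 weeks later. No group injected with the buffer alone is described, and the days of the VitD injections are not stated. The labels do not say that each library is 1 rat, so p-values measure the spread between these samples, which may be technical.

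Muscle fibers that lose their nerve restart part of an embryonic program. In the classical scheme the class IIa histone deacetylase HDAC4 accumulates and represses DACH2, a corepressor that keeps myogenin low in innervated muscle, and myogenin then drives synaptic genes over the whole fiber. The transcription factor RUNX1 and the adhesion molecule NCAM rise in denervated fibers, the sodium channel encoded by *Scn4a* carries the action potential of the adult fiber, and the BMP ligand GDF5 is induced and counters fiber loss.

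The starts of 3 members are shown because they cover the main behaviors seen below: *Runx1* was lower in both groups that received pMT, *Scn4a* was the most abundant member and varied mostly within groups, and *Hdac9* was low in 2 libraries of 1 group. Each window holds 250 bases before and 50 after an annotated transcript start and comes from RefSeq on GRCr8, on the minus strand: chr11:45421276-45421575 for *Runx1*, chr10:91796275-91796574 for *Scn4a* and chr6:57052522-57052821 for *Hdac9*. The windows of *Runx1* and *Hdac9* lie inside the annotated genes, at an internal transcript start. Capitals mark E-boxes (CANNTG, the letters that myogenin and its relatives bind) and RUNX motifs (TGTGGT or TGCGGT, on either strand), which did not overlap each other.
Runx1 promoter: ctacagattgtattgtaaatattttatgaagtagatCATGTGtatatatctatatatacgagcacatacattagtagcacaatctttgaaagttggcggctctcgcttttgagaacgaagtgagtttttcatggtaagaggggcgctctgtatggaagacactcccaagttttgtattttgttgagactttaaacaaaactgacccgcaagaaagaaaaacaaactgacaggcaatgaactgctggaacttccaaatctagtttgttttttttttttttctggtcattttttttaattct
Scn4a promoter: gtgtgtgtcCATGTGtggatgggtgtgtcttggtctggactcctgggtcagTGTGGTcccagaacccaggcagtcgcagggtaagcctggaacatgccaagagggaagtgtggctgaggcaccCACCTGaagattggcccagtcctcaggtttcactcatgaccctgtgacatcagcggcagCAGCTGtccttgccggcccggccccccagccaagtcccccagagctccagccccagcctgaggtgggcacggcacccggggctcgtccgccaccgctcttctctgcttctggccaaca
Hdac9 promoter: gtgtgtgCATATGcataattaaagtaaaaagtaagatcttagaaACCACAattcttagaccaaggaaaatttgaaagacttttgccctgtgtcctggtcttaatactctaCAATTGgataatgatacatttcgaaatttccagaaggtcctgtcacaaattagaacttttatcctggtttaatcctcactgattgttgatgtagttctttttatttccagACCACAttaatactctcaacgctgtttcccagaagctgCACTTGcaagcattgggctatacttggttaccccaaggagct
The *Runx1* window held 1 E-box, starting 214 bases before the start, and no RUNX motif. That of *Scn4a* held 3 E-boxes and 1 RUNX motif, and that of *Hdac9* held 3 E-boxes and 2 RUNX motifs. Of all 33469 promoter windows of that length, 72.1% held an E-box and 22.9% a RUNX motif, so such matches are common. Windows were given for 5 of the 7 members, with 3 for *Dach2*. *Ncam1* and *Gdf5* had none.

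Total counts were 52342134 to 73557878 per library. Replicate 4 of the pMT group and replicate 4 of the pMT/VitD group stood apart from the other libraries of their groups. Over 7134 abundant genes, the SD of the log2 ratio was 0.36 to 0.56 between pMT replicate 4 and the other pMT libraries, against 0.19 to 0.34 between it and pMT/VitD replicates 1 to 3. For pMT/VitD replicate 4 it was 0.41 to 0.50 to its own group and 0.24 to 0.30 to pMT replicates 1 to 3. These 2 libraries are the ones said below to stand apart. Both were kept, and results that rest on them are given with and without them. VitD replicate 1 also lay far from its group, at 0.39 and 0.50 from VitD replicates 2 and 3, against 0.20 between those. It was kept too, and fits without it are given among those that leave out 1 library. The skeletal muscle markers summed to 91769 to 129042 TPM (transcript abundance scaled to gene length and to 1 total in every library) in every library, led by *Acta1* and *Ckm*, so the labelled tissue showed its defining markers.

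On the TPM scale, the order of mean levels over the 15 libraries was *Scn4a* (17.6), *Ncam1* (4.10), *Runx1* (3.74), *Hdac4* (2.62), *Hdac9* (1.59), *Gdf5* (0.131) and *Dach2* (0.00372). *Ncam1* and *Runx1* overlapped in their ranges over libraries, 1.88 to 10.9 against 1.14 to 11.4 TPM. Levels of 1 gene across libraries are given below as CPM, counts scaled to the library total with TMM factors. A gene was called when its Benjamini-Hochberg adjusted p over all 17201 tested genes was under 0.05 in edgeR's quasi-likelihood test. *Gdf5* passed the filter on low counts only through the groups where it was high, so it is described by its counts, and the counts of members called are over the other 5 tested members.

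*Ncam1* encodes the neural cell adhesion molecule, which is confined to synapses and satellite cells in innervated adult muscle and is also made by Schwann cells. It stood at 13.5 and 11.3 CPM in the control libraries and at 26.5 and 26.1 CPM in the surgery libraries. In the pMT group it was 12.1, 14.2, 15.9 and 15.2 CPM, and in the pMT/VitD group 12.3, 11.4, 11.7 and 11.7 CPM. The VitD libraries held 43.9, 30.3 and 20.2 CPM. Every library of the surgery and VitD groups was above every library of the control, pMT and pMT/VitD groups, and the widest spread was within the VitD group.

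*Ncam1* was 2.12-fold higher after surgery than in control muscle (log2 fold change 1.09 ± 0.25, SE; adjusted p = 0.0454). It was the member called in that comparison, 1 of 5, where 1.55% of all tested genes were called. With pMT it was 1.83-fold lower than after surgery alone (−0.87 ± 0.21; adjusted p = 0.0457), and with pMT/VitD 2.23-fold lower (−1.16 ± 0.21; adjusted p = 0.00547). Both comparisons use the same 2 surgery libraries. The comparison of pMT/VitD with VitD shares no library with that of pMT and surgery, and gave a 2.68-fold lower level (−1.42 ± 0.19; adjusted p = 0.000369).

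*Runx1*, a transcription factor that limits atrophy in denervated fibers and also acts in blood cells, stood at 8.44 and 8.12 CPM in control muscle and at 21.0 and 21.8 CPM after surgery. The pMT libraries held 9.08, 8.34, 8.68 and 9.24 CPM, and the pMT/VitD libraries 9.62, 7.60, 5.68 and 10.02 CPM. With VitD alone it was 39.2, 20.4 and 14.7 CPM. As for *Ncam1*, the surgery and VitD libraries lay above all others, and the first VitD library was the highest.

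The difference in *Runx1* between surgery and control was 2.58-fold (1.37 ± 0.34) and missed the threshold (adjusted p = 0.0588). It was 2.42-fold lower with pMT than after surgery alone (−1.28 ± 0.28; adjusted p = 0.0333). With pMT/VitD the level was 2.60-fold below the surgery group (−1.38 ± 0.28; adjusted p = 0.0118) and 3.01-fold below the VitD group (−1.59 ± 0.26; adjusted p = 0.00119).

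*Ncam1* and *Runx1* were the 2 members of 5 called lower with pMT than after surgery, where 1.94% of all genes were called in either direction. These calls were close to the threshold. With 1 library left out of the fit at a time, *Runx1* was called in 7 of 15 cases and *Ncam1* in 3 of 15. *Runx1* was lost without either control library, either surgery library or any pMT library. *Ncam1* kept its call only without pMT/VitD replicate 4, VitD replicate 1 or VitD replicate 3. The log2 fold changes moved little, −0.92 to −0.80 for *Ncam1* and −1.30 to −1.25 for *Runx1*. Without the 2 libraries that stood apart, they were −0.91 (adjusted p = 0.0520) and −1.31 (adjusted p = 0.0462), with 3.15% of all genes called. The calls of both genes in pMT/VitD against VitD were kept in all 15 such fits and in all 10 other alternatives.

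The call of *Ncam1* in surgery against control was kept in 4 of 15 such fits, those without pMT replicate 4, pMT/VitD replicate 4, VitD replicate 1 or VitD replicate 3, with a log2 fold change of 0.96 to 1.22 over the 15. *Runx1* passed the threshold without VitD replicate 1 or VitD replicate 3, with 1.34 to 1.40 over the 15. In pMT/VitD against surgery, *Ncam1* and *Runx1* lost their calls only without surgery replicate 1 or 2, with adjusted p-values of up to 0.0680 and 0.116.

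**Figure D1:**
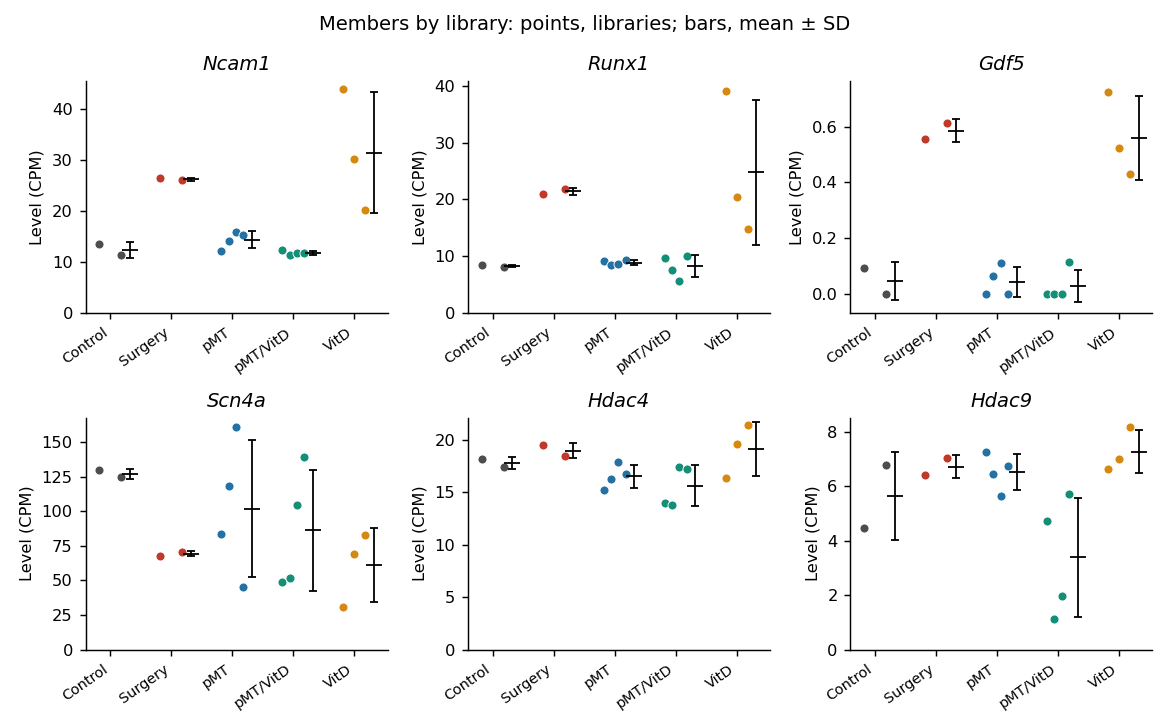
Level in CPM on the vertical axis (linear; counts scaled to the library total with TMM factors) for 6 members in each library, by group. Points are libraries and the black marks are the mean ± SD of each group. For *Ncam1*, *Runx1* and *Gdf5* the surgery and VitD points lie above those of the control, pMT and pMT/VitD groups, and for *Scn4a* the pMT points run from 45.2 to 161 CPM.

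*Gdf5*, the secreted BMP ligand, was rare. It had 6 and 0 counts in the control libraries, 43 and 45 after surgery, 0, 5, 8 and 0 with pMT, 0, 0, 0 and 6 with pMT/VitD, and 62, 36 and 33 with VitD alone. As for *Ncam1* and *Runx1*, every library of the surgery and VitD groups was above every library of the other 3 groups. A library without a count allows up to 0.0648 CPM here, and mean levels were 0.585 ± 0.0411 CPM (SD, n = 2) after surgery and 0.0436 ± 0.0537 CPM (SD, n = 4) with pMT. With pMT/VitD the mean was 0.0292 ± 0.0584 CPM (SD, n = 4) and with VitD 0.560 ± 0.151 CPM (SD, n = 3). A gene at this level had to be high in some group to be tested at all, so no test of *Gdf5* is given.

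The study's own rule for differentially expressed genes, edgeR's exactTest with a fold change of at least 2, was recomputed here on the surgery and pMT libraries. It took *Runx1*, 1 of the 5 members, where it took 4.04% of all genes (671) at an unadjusted p under 0.05 and 2.72% (451) at an adjusted one. Neither count equals that of the paper's list, so whether that list holds *Runx1* is not known here. *Ncam1*, with a log2 fold change of −0.88 in that test, fell short of the fold.

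*Hdac9* encodes a class IIa histone deacetylase that represses MEF2 targets in innervated muscle. Its level was 4.48 and 6.78 CPM in control muscle, 6.41 and 7.02 CPM after surgery, 7.25, 6.44, 5.65 and 6.73 CPM with pMT, and 6.62, 7.01 and 8.16 CPM with VitD. The pMT/VitD libraries held 4.71, 1.11, 1.98 and 5.72 CPM. Replicates 2 and 3 of the pMT/VitD group were thus below every other library, while the remaining groups overlapped with one another.

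Against VitD alone, *Hdac9* was 2.15-fold lower with pMT/VitD (log2 fold change −1.10 ± 0.37; adjusted p = 0.0483), which made 3 of 5 members called lower in that comparison, where 21.9% of all genes were called in either direction. The *Hdac9* call was kept in 8 of 25 alternative fits. Among these were 2 of 15 fits without 1 library, those without pMT/VitD replicate 1 or 4, and the log2 fold change was −1.50 to −0.81 over the 15. Without the 2 libraries that stood apart the log2 fold change was −1.50 (adjusted p = 0.00916; 32% of all genes called), and in pMT/VitD against surgery *Hdac9* then passed the threshold (−1.39; adjusted p = 0.02997; 20.1% of all genes called) where it had not before (−0.99; adjusted p = 0.155). Leaving out pMT/VitD replicate 4, which held the most *Hdac9* of its group, lowers that group by construction. These 2 calls are therefore no test of a difference. With all libraries, 2 of 5 members were called lower in pMT/VitD against surgery, *Ncam1* and *Runx1*, against 7.44% of all genes. With pMT alone *Hdac9* differed from surgery by −0.04, with a 95% interval of −0.94 to 0.85.

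*Hdac4*, the class IIa deacetylase that the classical scheme places upstream of *Dach2*, moved little. It stood at 18.2 and 17.4 CPM in control muscle, 19.4 and 18.5 CPM after surgery, 15.2, 16.2, 17.9 and 16.8 CPM with pMT, 14.0, 13.8, 17.4 and 17.2 CPM with pMT/VitD, and 16.3, 19.6 and 21.4 CPM with VitD. It was called in no comparison in the fit of all libraries. Surgery differed from control by 0.09 on the log2 scale, with a 95% interval of −0.23 to 0.42, so a doubling of the transcript lies outside that interval. For pMT against surgery the difference was −0.20 (−0.48 to 0.08). With pMT/VitD it was −0.28 (−0.56 to −0.01) against surgery (adjusted p = 0.192) and −0.29 (−0.54 to −0.05) against VitD (adjusted p = 0.0806). The latter passed the threshold in 5 of 25 alternative fits, among them that without the 2 libraries that stood apart (−0.35; adjusted p = 0.0342). That fit leaves out pMT/VitD replicate 4, among the higher of its group for *Hdac4* at 17.2 CPM.

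*Dach2* was near the limit of detection and was not tested. It had 0 counts in both control libraries and all 4 pMT/VitD libraries, 0 and 2 after surgery, 4, 4, 0 and 0 with pMT, and 5, 0 and 6 with VitD. No comparison of its levels was possible at this depth, and a library at 0 allows up to 3 counts.

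*Scn4a* encodes the main sodium channel of adult muscle fibers. It was at 130 and 124 CPM in control muscle and at 67.8 and 70.4 CPM after surgery. The pMT libraries held 83.2, 118, 161 and 45.2 CPM, the pMT/VitD libraries 48.8, 51.6, 104 and 139 CPM and the VitD libraries 31.1, 69.2 and 82.5 CPM. The control libraries were above those of the surgery and VitD groups, and the libraries within the pMT and pMT/VitD groups differed more than these groups did from each other. The 2 extremes were pMT replicate 3 and VitD replicate 1, the latter also holding the most *Ncam1* and *Runx1*.

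Surgery against control gave a log2 fold change of −0.88 ± 0.58 for *Scn4a* (adjusted p = 0.472), and VitD against control −1.06 ± 0.52 (adjusted p = 0.214). Neither passed the threshold. Fitted on the control and surgery libraries alone, *Scn4a* passed it (−0.85), beside *Ncam1* and *Runx1*, in a fit that called 32.4% of all genes. Long transcripts were over- or under-represented to differing degrees between libraries, with a rank correlation between the log2 ratio to the mean library and gene length of −0.39 to 0.45. *Scn4a*, whose length is above that of 93.1% of genes, moved with it: its level had a Spearman correlation of 0.64 with this trend over the 15 libraries, against 0.56 for *Hdac4*, 0.49 for *Gdf5*, 0.39 for *Hdac9*, 0.27 for *Ncam1* and 0.13 for *Runx1*. Its part in the *Scn4a* values was not tested beyond the fit with the trend removed, in which *Scn4a* was called nowhere.

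In surgery against control 4 of the 5 members did not overlap between groups, 3 higher and 1 lower, but so did 66.1% of all genes with 2 libraries on each side. For VitD against control it was 3 of 5 against 52.1%, for pMT against surgery 3 of 5 against 30.4%, for pMT/VitD against surgery 4 of 5 against 36.8% and for pMT/VitD against VitD 3 of 5 against 28.6%. In the last 3 comparisons every member that did not overlap was lower with pMT or pMT/VitD.

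**Figure D2:**
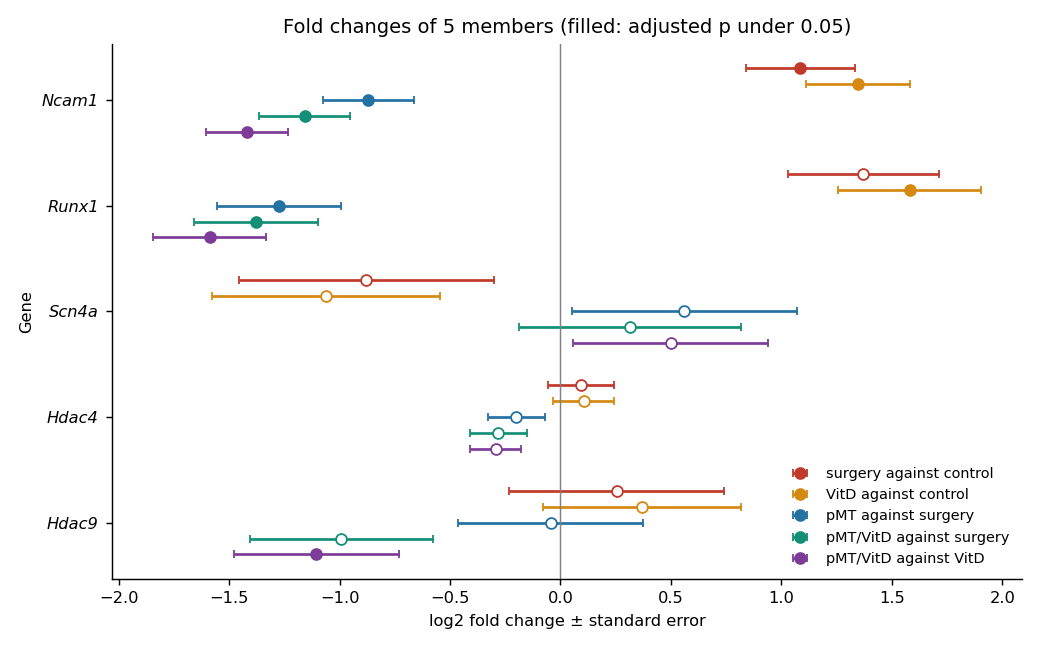
Log2 fold change on the horizontal axis with its standard error (bars) for 5 members in 5 comparisons. Filled points passed an adjusted p of 0.05. *Ncam1* and *Runx1* lie right of 0 in surgery and VitD against control and left of 0 in the 3 comparisons with pMT, and the points of *Hdac4* lie within 0.3 of 0.

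Against the uninjured muscle, VitD alone held 2.54-fold more *Ncam1* (1.35 ± 0.23; adjusted p = 0.00616) and 2.99-fold more *Runx1* (1.58 ± 0.32; adjusted p = 0.0124), 2 of 5 members called against 8.67% of all genes. Both calls were lost without control replicate 1 or 2, with adjusted p-values of up to 0.0923 and 0.128. VitD against surgery gave no call among the members and none among all genes (0%; 139 genes at an unadjusted p under 0.05, and 0 called by DESeq2). The 95% interval of that difference was −0.22 to 0.74 for *Ncam1* and −0.44 to 0.86 for *Runx1*, which leaves room for a difference in either direction.

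No member was called between pMT and control, with intervals of −0.25 to 0.68 for *Ncam1* and −0.54 to 0.73 for *Runx1*, nor between pMT/VitD and control, with −0.53 to 0.39 and −0.64 to 0.62. Over all genes these comparisons also gave 0% in edgeR's quasi-likelihood test, with 528 and 496 genes at an unadjusted p under 0.05 and 0 and 1 called by DESeq2.

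Between pMT/VitD and pMT no member and 0% of all genes were called in that test (1737 at an unadjusted p under 0.05, 93 called by DESeq2). *Hdac9* had the lowest p of the members (log2 fold change −0.95 ± 0.35; adjusted p = 0.452). It was the 1 member called, at −1.31 (adjusted p = 0.0294), without the 2 libraries that stood apart, where 18.3% of all genes (3136) were called. These 2 were set apart because each lay nearer the other group, so leaving them out widens this comparison by construction. The calls without them are therefore no test of a difference, and pMT/VitD replicate 4 held the most *Hdac9* of its group. Whether pMT acted differently with VitD than without was tested as an interaction, and again 0 members and 0% of genes were called (888 at an unadjusted p under 0.05, 0 by DESeq2). Without the 2 libraries that stood apart, 1.89% of genes (325) and no member were called, under the same limit. The interaction was −0.55 ± 0.28 for *Ncam1*, −0.31 ± 0.39 for *Runx1* and −1.06 ± 0.57 for *Hdac9*. Over all 5 groups together, *Ncam1* (adjusted p = 0.000748) and *Runx1* (adjusted p = 0.00172) differed, 2 of 5 against 11.8% of all genes.

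In bulk tissue, fewer cells of a type and less RNA per cell cannot be told apart, and several members are also made outside the fiber. The 8 leukocyte markers moved with *Ncam1*, *Runx1* and *Gdf5*. Their summed level was 32.3 to 34.8 TPM in control muscle, 64.7 to 65.5 after surgery, 20.3 to 46.6 with pMT, 17.9 to 42.5 with pMT/VitD and 59.0 to 79.3 with VitD, so here too the surgery and VitD libraries lay above all others. *Adgre1*, a macrophage marker, was the 1 leukocyte marker called in surgery against control (1.22; adjusted p = 0.0472) and in pMT against surgery (−1.14; adjusted p = 0.0241), while the more abundant *Csf1r* (−0.73) and *Cd68* (−0.72) were not called in the latter. The T cell marker *Cd3e* was at 0 in 3 libraries. In pMT/VitD against VitD 5 of 7 tested leukocyte markers were called lower, where 21.9% of all genes were called in either direction and 12.2% lower.

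The 8 Schwann cell markers, led by *Pmp22*, summed to 89.0 to 89.6 TPM in control muscle, 127 to 128 after surgery, 66.6 to 119 with pMT, 66.2 to 102 with pMT/VitD and 121 to 136 with VitD, again with no overlap. None of them was called in surgery against control or pMT against surgery. The satellite cell markers, led by *Sdc4* and *Cdh15*, were lower in control muscle than in the surgery, pMT and VitD groups and otherwise overlapped, with 34.5 to 36.5 TPM in control muscle, 42.8 to 43.1 after surgery, 38.0 to 46.7 with pMT, 29.7 to 43.7 with pMT/VitD and 40.9 to 45.5 with VitD. Cartilage, joint and tendon markers, which bear on *Gdf5* as a joint gene, summed to 24.6 to 25.3, 37.8 to 38.9, 25.8 to 37.9, 24.9 to 37.6 and 32.4 to 40.8 TPM in the same order, led by *Scx* and *Prg4*, and *Acan* and *Matn1* were listed at 0 in all 15 libraries. The part of these cells in the members' levels was not tested.

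**Figure D3:**
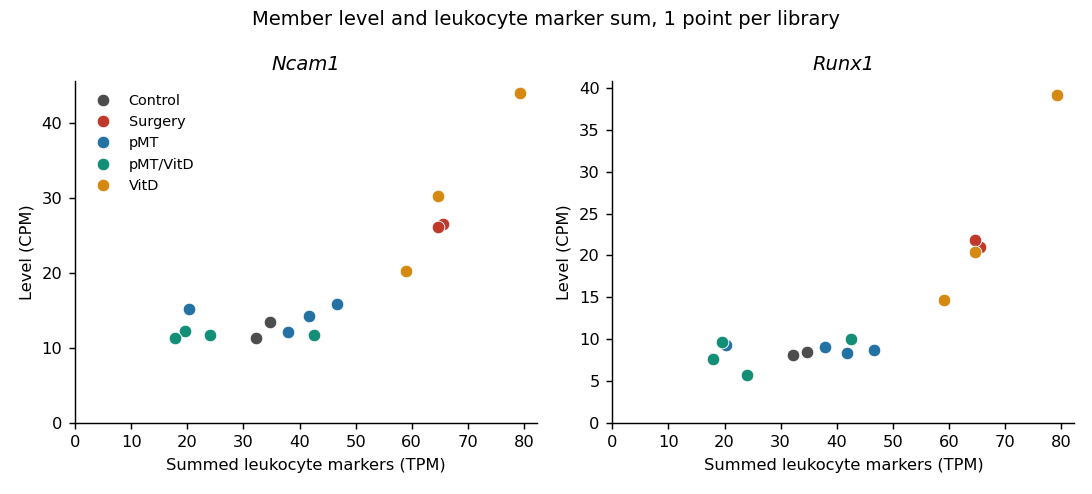
Level of *Ncam1* and *Runx1* in CPM (vertical axis) against the summed TPM of 8 leukocyte markers (horizontal axis), 1 point per library, colored by group. The 5 surgery and VitD libraries sit above 59 TPM and hold the highest levels of both genes, while the 10 other libraries spread from 17.9 to 46.6 TPM.

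The libraries fell into 2 sets for *Ncam1* and *Runx1*, so a correlation over all 15 would mostly restate the groups. Within the 10 control, pMT and pMT/VitD libraries, where both genes varied little, the correlation of their log2 CPM was low (Pearson's r 0.27, Spearman's rho 0.32). With each group's mean subtracted, r over all 15 libraries was 0.77, and the spread of both genes was widest in the VitD group. Within the same 10 libraries, *Scn4a* had an r of 0.75 and a rho of 0.71 with *Hdac4* and 0.30 and −0.01 with *Hdac9*. With *Ncam1* they were 0.10 and 0.03, and with *Runx1* −0.11 and −0.03. The values with *Gdf5*, 0.73 and 0.78, rest on 0 to 8 counts of *Gdf5* per library. They mainly set libraries with a few counts against those at 0. These are descriptions over libraries that share their depth and length trend.

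The genes whose log2 CPM was most like each member over the 15 libraries were, for *Ncam1*, *Fap* (r 0.99), NEWGENE_621351, which the table describes as a collagen type I alpha 2 gene, and *Col1a2* itself, a pair that may split the same reads. For *Runx1* they were *Lyz2* (r 0.99), *Klf6* and *Pdia6*, and for *Gdf5* they were *Ms4a4a* (r 0.97), *P3h1* and *Sipa1*. *Scn4a* had *Usp24* (r 0.99), *Ryr1* and *Kmt2d*, *Hdac4* had *Zmym6* (r 0.93), *Akap12* and *Slco2b1*, and *Hdac9* had *Galnt4* (r 0.89), *Rnf26* and *Evi5*. The candidates were 11394 genes. For *Ncam1*, *Runx1* and *Gdf5* these r values carry the same split of the libraries by group. With each group's mean subtracted, r of the genes listed for the members ran from 0.778 (*Evi5* with *Hdac9*) to 0.985 (*Kmt2d* with *Scn4a*). All r values with *Gdf5* rest in part on the control, pMT and pMT/VitD libraries, which held 0 to 8 counts of it.

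The related genes were read in 8 lists, beside 1.55% of all genes called in surgery against control and 1.94% in pMT against surgery. Of the 4 myogenic regulatory factors, *Myog* (myogenin) was the 1 called, higher after surgery than in control (1.29 ± 0.20; adjusted p = 0.00817) and lower with pMT than after surgery (−1.01 ± 0.16; adjusted p = 0.00744), while *Myf6*, the most abundant, stood at −0.11 and 0.22. Of the 6 genes for acetylcholine receptor subunits and the synaptic kinase MUSK, 2 were higher after surgery and 3 lower with pMT. The fetal gamma subunit *Chrng* stood at 3.78 and −2.25 and the alpha subunit *Chrna1* at 1.49 and −1.43, both called in both. The delta subunit *Chrnd* stood at 1.79 after surgery, short of the threshold (adjusted p = 0.0601), and was called with pMT (−1.72; adjusted p = 0.0272). The beta subunit *Chrnb1*, the most abundant, was called in neither (0.22 and −0.17). The list median was 1.34 after surgery and −1.14 with pMT, against −0.01 and 0.02 over all genes.

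Of 5 atrophy effectors, *Cdkn1a*, which encodes the cell cycle inhibitor p21, was called in both (2.62 and −2.28). The ubiquitin ligase genes *Trim63* (0.00 and 0.11) and *Fbxo32* (−0.14 and 0.31) were not. Of 21 BMP pathway genes, *Bmp4* was higher after surgery (0.68; adjusted p = 0.0461) and none was called with pMT, and the target genes *Id3* and *Id1* were at 0.88 and 0.74 after surgery, not called. Among 10 further deacetylases, MEF2 factors and *Dach1*, with *Mef2c* and *Mef2d* the most abundant, none was called in either comparison, and the list medians were −0.01 and 0.02.

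None of 5 RUNX factors and cofactors, led by *Cbfb* (−0.49 and 0.35) and *Cbfa2t3* (−0.25 and 0.21), of 6 NCAM partners, led by *Fgfr1* (0.10 and −0.07) and *Gap43* (0.47 and −0.04), or of 8 tested sodium channel genes, with *Scn4b* at −0.45 and 0.50, was called in surgery against control or pMT against surgery.

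In pMT/VitD against VitD, which shares no library with the other pMT comparison, 2 of 4 myogenic factors, 3 of 6 receptor and kinase genes and 3 of 5 atrophy effectors were lower, against 21.9% of all genes called in either direction. *Myog* stood at −1.17, *Chrng* at −2.44, *Chrna1* at −1.46 and *Cdkn1a* at −2.52. In the same comparison 1 further deacetylase or MEF2 gene was higher and 2 were lower, and of the BMP genes 1 was higher and 5 lower.

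**Figure D4:**
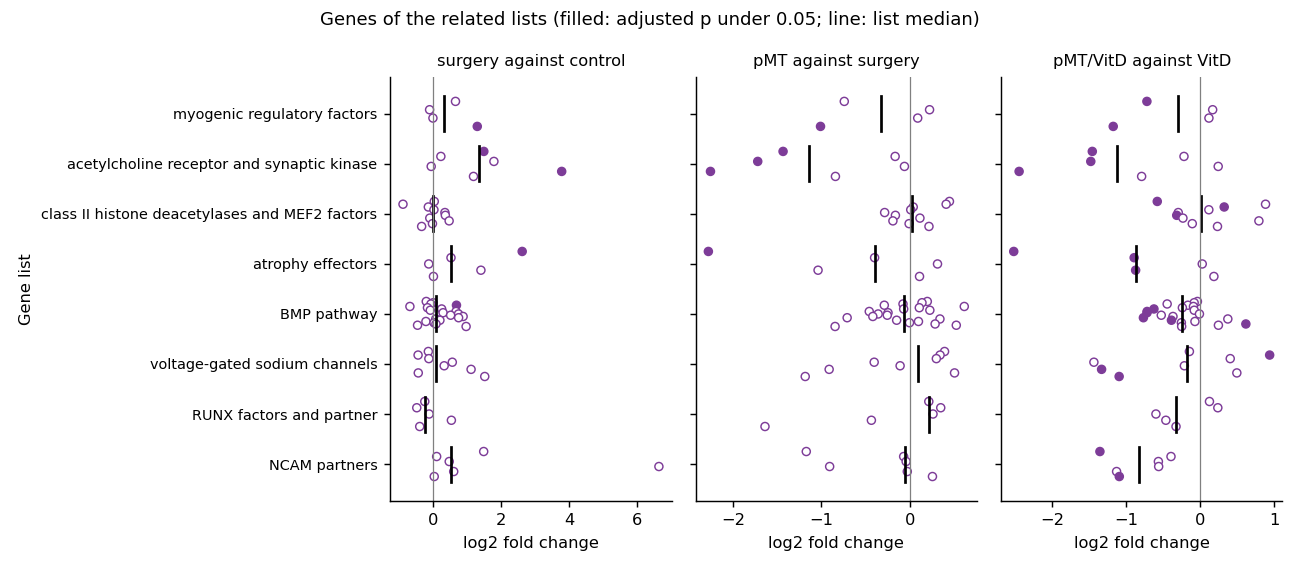
Log2 fold change (horizontal axis) of each tested gene of 8 related lists (rows) in 3 comparisons. Filled points passed an adjusted p of 0.05 and the black line is the list median. The receptor list stands at a median of 1.34 in surgery against control and −1.14 in pMT against surgery, while the medians of the deacetylase and MEF2 list are near 0 in all 3.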

How the data were processed

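Paired-end RNA sequencing of multifidus gave 15 libraries, grouped by the sample labels. Per the submitters' processing notes and methods, the authors used Trimmomatic 0.38 for trimming, HISAT2 2.1.0 for alignment to rn6 and StringTie 2.1.3b for quantification. They deposited raw read counts per gene, which every test used. The authors also deposited TPM values, used here for levels between genes and for relative length (mean count over mean TPM), and FPKM values, not used here. Handling of strand and of shared reads is not stated. *Scn4a* overlaps the noncoding LOC108352146, which had 31 counts in all.

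Counts were scaled with TMM factors in edgeR 4.0.16 (R 4.3.3). filterByExpr left 17201 of 37991 genes. A quasi-likelihood fit (robust) of all 15 libraries on group gave each comparison, with Benjamini-Hochberg adjusted p-values over all tested genes. DESeq2 1.42.0 was an alternative, and the other alternatives stand in the closing section. The code was tested on simulated data. Precision is limited by 2 to 4 libraries per group. For *Dach2* and *Gdf5* it is also limited by a floor of 3 counts per library, which covers counting error only.

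The text names all 7 members, the 2 most abundant genes of each list by mean TPM, those called in surgery against control or pMT against surgery, and the 3 genes most like each tested member by Pearson's r, among genes whose mean log2 CPM reached 1 (prior count 2). Some genes that this rule takes are not reported here. Genes named to describe where a marker list was at 0 were chosen after their values were seen. The members and lists were chosen with earlier results of these data known. GRCr8 was used for names, neighbors and promoter windows only.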

Additional observations from a re-analysis of the deposited data

Results flagged for a closer look

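In 13 sets of 4 libraries examined (the tested members and *Dach2* in the pMT and pMT/VitD groups, where values differed), 1 library lay far from the others. *Gdf5* was at 0.117 CPM in pMT/VitD replicate 4, from 6 counts, and at 0 in the other 3 libraries of that group. Chance flags about 5% of such sets where the values are continuous. A set with 3 libraries at 0 is flagged whatever the remaining value above 0. The flag of *Gdf5* was thus fixed in advance, and no conclusion is drawn from it.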

How the results depend on the processing

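No called log2 fold change of a member reversed under any alternative. Counts of members called are given here over the 5 tested members other than *Gdf5*, beside the share of all genes. In surgery against control (1, 1.55%) it was 2 with library size scaling (5.8%) or DESeq2 (5.82%), 3 with only the groups compared (32.4%) and 0 with the gene length trend removed (3.15%). In pMT against surgery (2, 1.94%) it was 1, *Runx1*, with the trend removed (2.84%), with a fold change of at least 2 (1.02%) or without both libraries that stood apart (3.15%). Leaving out both made it 1 for pMT/VitD against pMT (0; 18.3%), a comparison that this choice of libraries widens. In VitD against control (2, 8.67%) it was 0 with only the groups compared (0.579%). Leaving out 1 library gave 0 to 2 in surgery against control, pMT against surgery and VitD against control. It gave 0 to 3 in pMT/VitD against surgery (2) and 2 to 4 in pMT/VitD against VitD (3). Without VitD replicate 1, 10.9% of all genes and 3 members were called in pMT/VitD against VitD. In surgery against control that fit called 5.98% and 2 members. The cause of these changes was not tested. With library size scaling the median of all genes moved to 0.25 in surgery against control and −0.12 in pMT against surgery.

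Replicate numbers did not pair the libraries: 2 of 24 same-numbered pairs had an r over 0.1 (range −0.50 to 0.17), and 5 of 15 libraries correlated best with their own number. A replicate block gave 0 members in surgery against control (0.616% of all genes) and in pMT against surgery (0.453%). It gave 2 in pMT/VitD against surgery (2.03%), 2 in VitD against control (7.55%) and 4 in pMT/VitD against VitD (15.7%).

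Depth limits *Dach2* and *Gdf5*. Of 1499 recomputed member values, those of *Gdf5* among them, 19 gained a call and 51 uncalled ones changed sign. A call was lost by 76. Only values called with all libraries can lose one, so the share lost among those is larger than 76 of 1499.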
